A study of Mus musculus with 38 samples.

Results

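The 13 protein genes of the mitochondrial genome were examined in RNA sequencing counts of cardiomyocytes, endothelial cells (ECs) and fibroblasts from mouse hearts. They were the rows of the count table whose Ensembl identifier maps to a symbol beginning with mt- on chromosome M of GRCm39, and they made up 13 of 35682 genes in the table. The annotation places 37 genes on this chromosome, and its 2 ribosomal RNAs and 22 transfer RNAs are not analysed here. The study asked how empagliflozin (EMPA), a sodium-glucose cotransporter inhibitor used against diabetes and heart failure, alters heart cells when given before acute myocardial infarction (AMI). Male C57BL/6 mice aged 8 to 12 weeks were treated by mouth for 6 weeks. The Sham group (SHAM in the labels) received vehicle, DMSO in saline, and had the chest opened without ischemia. Control-AMI mice (Control_IR) received the same vehicle, and EMPA–Pre-AMI mice (EMPA_IR) received EMPA at 10 mg/kg per day in it. In both of these groups the left anterior descending artery was tied for 30 min and the heart was reperfused for 2 h. No genetic modification is named in the labels. Each of the 38 libraries came from 2 pooled hearts, so a replicate is a pool and not a single animal. The numbers of libraries in the order Sham, Control-AMI and EMPA–Pre-AMI were 4, 5 and 4 for cardiomyocytes, 4, 4 and 5 for ECs and 4, 4 and 4 for fibroblasts. Cardiomyocytes were pelleted at low speed after collagenase digestion of the tissue below the suture and were not sorted. ECs were sorted as CD45- CD31+ cells and fibroblasts as CD45- CD31- CD90+ cells, from the supernatant of the same digests. Libraries of different populations can therefore share hearts.

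Mitochondrial DNA is a small circle that every cell carries in many copies, and its protein genes all encode subunits of oxidative phosphorylation. They are read as long transcripts of the heavy and light strands, which are cut apart at the transfer RNAs between the genes. Most, but not all, of the messengers receive short poly(A) tails. Cardiac muscle is known for its dense mitochondria. Of the 13 genes, 7 encode subunits of complex I, which takes electrons from NADH (mt-Nd1, mt-Nd2, mt-Nd3, mt-Nd4, mt-Nd4l, mt-Nd5 and mt-Nd6). mt-Cytb encodes the cytochrome b of complex III. The 3 genes mt-Co1, mt-Co2 and mt-Co3 encode the core of complex IV, cytochrome c oxidase, and the 2 genes mt-Atp6 and mt-Atp8 encode parts of the proton channel side of ATP synthase. mt-Nd6 is the 1 member on the light strand, and the other 12 are on the heavy strand.

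The genes lie so close together that some share bases or end without a full stop codon, and this limits what a read at a transcript's 3′ end can tell. All sequences here were read from the GRCm39 chromosome M, 16299 bases long, and are given 5′ to 3′ as in the RNA. The first pair of lines shows the joins where 2 genes on the same strand overlap by more than 1 base, with the shared bases in capitals. mt-Atp8 (M:7766-7969) and mt-Atp6 (M:7927-8607) share 43 bases, and mt-Nd4l (M:9877-10173) and mt-Nd4 (M:10167-11544) share 7, and the genes of each pair are known to be carried by 1 messenger RNA.
mt-Atp8 and mt-Atp6 (M:7915-7974): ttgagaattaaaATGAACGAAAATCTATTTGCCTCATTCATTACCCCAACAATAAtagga
mt-Nd4l and mt-Nd4 (M:10143-10193): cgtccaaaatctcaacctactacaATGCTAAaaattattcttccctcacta

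The next lines give the last 30 bases of 4 genes, with the encoded stop codon, or what is encoded of it, in capitals. mt-Co1 and mt-Co2 end in a complete stop codon, whereas mt-Co3 and mt-Nd4 end in a single T that the poly(A) tail completes.
mt-Co1 (M:6843-6872): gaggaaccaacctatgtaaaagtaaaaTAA
mt-Co2 (M:7667-7696): ttcgaaaactgatctgcttcaataattTAA
mt-Co3 (M:9361-9390): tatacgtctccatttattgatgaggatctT
mt-Nd4 (M:11515-11544): gtccaaaactaattacaggcctgacaataT

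The libraries were made with an oligo-dT 3′ kit, in which runs of A inside a message can also bind the primer. The longest run of A within a member was the 8 bases of mt-Nd2, shown in capitals, 892 bases before the gene's end. mt-Co1, mt-Nd4 and mt-Nd5 held runs of up to 7 and mt-Co2 and mt-Nd4l of up to 4. The files do not say where in a gene a read fell, so the part of such runs in the counts was not tested.
mt-Nd2 (M:4036-4075): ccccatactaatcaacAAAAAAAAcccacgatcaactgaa

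Many mitochondrial sequences also have copies in the nuclear genome. Of 17 nuclear copies in the table with at least 90% identity over at least 100 bases, 12 carried counts. Gm29216, a pseudogene on chromosome 1 (1:24654787-24655278, minus strand), held 703453 counts over all libraries, and the other 11 held 5729 together. It matches 483 bases at the 3′ end of mt-Co1 with 1 mismatch, A1066T, where positions count from the first base of mt-Co1 and the mt-Co1 base comes first. The differing base is in capitals below, and the 479 bases of mt-Co1 that follow it are identical in the copy.
mt-Co1 (M:6390-6411): ggaAttgttttatccaactcat
Gm29216 (1:24655248-24655269): ggaTttgttttatccaactcat

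Reads from the last 479 bases of mt-Co1 cannot be told apart from reads of Gm29216. Of the counts of this pair, Gm29216 held 40.5% to 70.7% in the 38 libraries, with a median of 54.4%. Its share was 51.4% ± 2.92 (SD, n = 4) in Sham cardiomyocytes, 58.1% ± 4.31 in Sham ECs and 63.1% ± 6.02 in Sham fibroblasts. The counts of mt-Co1 are therefore uncertain by about the size of Gm29216 in each library. The 5 other copies Atp6-ps, Gm10222, Gm28437, Gm28439 and Gm28661 were 100% identical to their mitochondrial gene over the aligned bases and were listed at 0 in the sum of all libraries. mt-Nd5 and mt-Nd6 overlap by 14 bases on opposite strands, and the strand setting of the counting is not given in the sources used here.

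Cardiomyocyte libraries totalled 2031726 to 4509305 counts, EC libraries 1352528 to 2195319 and fibroblast libraries 1946070 to 2821386, of which the 13 genes held at least 68331 in every library. Each population was highest in its own defining marker, with some of another population's markers in places. Myh6, the cardiac myosin heavy chain, was at 1962 to 10251 CPM of the library (its counts scaled to a common library total) in cardiomyocytes, and at most at 370 CPM in ECs and 215 CPM in fibroblasts. Pecam1 (CD31) was at 1064 to 2469 CPM in ECs, and Col1a1 was at 1159 to 1629 CPM in fibroblasts. Control-AMI ECs had Col1a1 at 551, 90.4, 143 and 336 CPM, above the 20.9 to 63.6 CPM of Sham ECs and the 12.3 to 43.7 CPM of EMPA–Pre-AMI ECs. The fibroblast list of 10 genes summed to 3464 to 14423 CPM in Control-AMI ECs, 886 to 2526 in Sham ECs and 757 to 1419 in EMPA–Pre-AMI ECs. Their part in the EC comparisons was not tested. The leukocyte markers as a list of 10 genes summed to 10.7 to 763 CPM in ECs and 9.57 to 679 CPM in fibroblasts, with the highest values in EC Control-AMI replicate 3 and fibroblast Sham replicate 2. In bulk libraries, fewer cells of a type and less RNA per cell cannot be told apart.

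The share of a library taken by the 13 genes separated cardiomyocytes from the other populations. In Sham cardiomyocytes it was 56.1%, 62.1%, 55.8% and 50.6% in replicates 1 to 4. In Sham ECs it was 6.87%, 7.67%, 7.64% and 5.16%, and in Sham fibroblasts 4.1%, 12.5%, 6.17% and 7.88%. The cardiomyocyte libraries overlapped with neither of the others, and EC and fibroblast libraries overlapped. The mean share was 8.22 times as high in Sham cardiomyocytes as in ECs (56.2% ± 4.71 against 6.83% ± 1.18) and 7.34 times as high as in fibroblasts (7.65% ± 3.56). Because a share cannot exceed the whole, the same libraries were also read as mitochondrial counts per 100 counts outside mitochondrial and hemoglobin genes, which gave log2 ratios of 4.15 and 3.95 in place of 3.04 and 2.88.

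**Figure D1:**
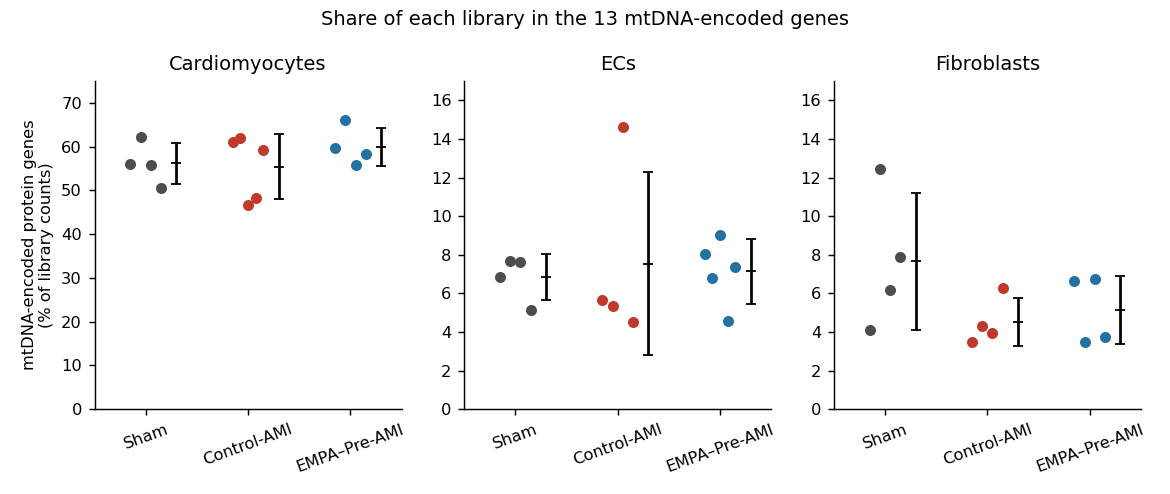
Share of each library's counts in the 13 mtDNA-encoded protein genes (vertical axis, percent) for cardiomyocytes, ECs and fibroblasts in the 3 groups; each point is a library and bars are mean ± SD. The cardiomyocyte panel runs to 75% and the others to 17%, and the high EC point is Control-AMI replicate 3 at 14.6%.

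Within cardiomyocytes the shares of the 3 groups overlapped. Control-AMI libraries had 61%, 62%, 46.6%, 48.3% and 59.3%, and EMPA–Pre-AMI libraries had 59.6%, 66%, 55.7% and 58.4%. The group means were 55.5% ± 7.38 (n = 5) and 59.9% ± 4.37 (n = 4), against 56.2% ± 4.71 in Sham. The log2 ratio for EMPA–Pre-AMI against Control-AMI, 0.11, was smaller than the pooled SD of the log2 shares, 0.16. As counts per 100 other counts it was 0.23, from means of 152 ± 30.0 and 130 ± 36.1, a difference smaller than either SD.

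In ECs, Control-AMI libraries had 5.67%, 5.35%, 14.6% and 4.52%, and EMPA–Pre-AMI libraries had 8.02%, 6.79%, 9%, 4.55% and 7.34%. Replicate 3 of Control-AMI stood apart from the other 3, and the ranges of all groups overlapped. This library also had the highest sum of leukocyte markers in ECs, 763 CPM against 10.7 to 136 in the other EC libraries, with none of the 10 at 0 and Ptprc (CD45) at 31 CPM, and the part of these cells in its mitochondrial share was not tested.

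In fibroblasts, Control-AMI libraries had 3.49%, 4.33%, 3.94% and 6.28%, and EMPA–Pre-AMI libraries had 6.65%, 3.47%, 6.72% and 3.75%. Both groups lay inside the range of Sham, 4.1% to 12.5%, or below it, and the log2 ratios of the means to Sham were -0.76 and -0.57, where the pooled SDs of the log2 shares were 0.54 and 0.60. Sham replicate 2, with the highest share, had a leukocyte marker sum of 679 CPM, against 9.57 to 49 in the other fibroblast libraries, and Ptprc at 22.8 CPM. Without it the log2 ratios to Sham were -0.42 and -0.23.

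All 13 genes were higher in Sham cardiomyocytes than in Sham ECs and than in Sham fibroblasts (edgeR's quasi-likelihood test, Benjamini-Hochberg false discovery rate [FDR] below 0.05 over 12085 genes). Among all genes tested, 28.1% were higher in cardiomyocytes than in ECs and 24.5% were higher than in fibroblasts. The median log2 fold change of the 13 genes was 4.44 against ECs and 4.19 against fibroblasts, where the medians of all genes were -0.04 and -0.09. These values use TMM scaling, and with library sizes alone the medians were 2.60 and 2.41, with all 13 genes still called higher, while the medians of all genes moved to -1.85 and -1.84.

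The complex I genes mt-Nd4 and mt-Nd2 held the most counts. mt-Nd4 was at 162670, 204630, 162480 and 156470 CPM of the library in Sham cardiomyocytes, at 17074, 13394, 12843 and 10164 CPM in Sham ECs and at 11517, 27642, 14081 and 14422 CPM in Sham fibroblasts. The lowest cardiomyocyte library lay well above the highest of the others. With TMM scaling, the log2 fold change of mt-Nd4 was 5.52 ± 0.45 (SE) against ECs (FDR 1.73e-13) and 5.12 ± 0.44 against fibroblasts (FDR 9.76e-13). The TMM-scaled means were 377940 CPM in Sham cardiomyocytes, 8215 in Sham ECs and 10872 in Sham fibroblasts. For the genes below, fold changes in level between cardiomyocytes and the other populations use this scale too. They exceed the ratios of the listed CPM of the library.

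mt-Nd2 was at 151370, 153160, 157050 and 134720 CPM of the library in Sham cardiomyocytes. In Sham ECs it was at 13972, 12422, 12285 and 9171 CPM, and in Sham fibroblasts at 9144, 16125, 10018 and 10987. The TMM-scaled fold changes were 5.48 ± 0.40 and 5.46 ± 0.40 on the log2 scale, among the largest of the 13 in both comparisons. mt-Nd4l and mt-Nd5, also of complex I, differed by 5.53 ± 0.54 and 4.87 ± 0.49 from ECs and by 5.52 ± 0.54 and 5.61 ± 0.51 from fibroblasts.

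mt-Co2, a subunit that receives electrons from cytochrome c, had a smaller difference. It was at 23647, 25307, 24899 and 22074 CPM of the library in Sham cardiomyocytes, at 4777, 8312, 9597 and 5523 CPM in ECs and at 1919, 15544, 5227 and 11462 CPM in fibroblasts. The 4 cardiomyocyte libraries lay above all others, and the fibroblast libraries were spread over the range of the ECs and beyond. The TMM-scaled log2 fold change was 3.61 ± 0.64 against ECs and 3.26 ± 0.63 against fibroblasts. mt-Nd3 followed with 3.90 ± 0.69 and 3.62 ± 0.68.

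mt-Nd6, from the light strand, was the least counted member. The libraries count poly(A) ends, and how fully each messenger carries a tail was not tested, so low counts need not mean little RNA. It was at 193, 147, 193 and 139 CPM of the library in Sham cardiomyocytes, at 91.5, 41.2, 68.4 and 69.5 CPM in ECs and at 31.3, 39.6, 24 and 32.3 CPM in fibroblasts. Behind these values were 443 to 661 counts per cardiomyocyte library, 85 to 158 per EC library and 51 to 91 per fibroblast library. Its TMM-scaled log2 fold change against ECs, 3.15 ± 0.42, was the smallest of the 13, and against fibroblasts it was 4.17 ± 0.44. The remaining genes mt-Nd1, mt-Co1, mt-Atp8, mt-Atp6, mt-Co3 and mt-Cytb lay between 3.90 and 5.34 in both comparisons.

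**Figure D2:**
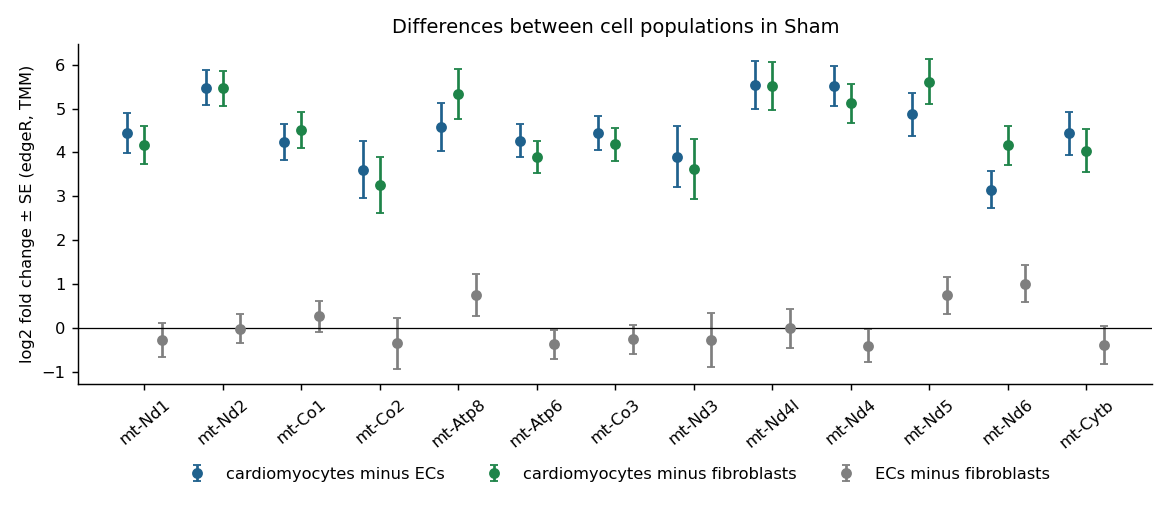
Log2 fold change ± SE (edgeR with TMM scaling) of each mtDNA-encoded gene between cell populations in Sham, with genes in their order on the chromosome. The 13 genes lie between 3.15 and 5.61 in both comparisons with cardiomyocytes and between -0.40 and 1.01 for ECs minus fibroblasts.

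Between Sham ECs and Sham fibroblasts no member passed the test, where 37.7% of all genes did. By unadjusted p below 0.05, 1 of 13 did (44.8% of all genes), and DESeq2 called 1 (33.8% of all genes with an adjusted p), in both cases mt-Nd6, which was higher in ECs by 1.01 ± 0.41 (FDR 0.052 by edgeR). The call depended on the fit, since mt-Nd6 also passed with library sizes alone, with a replicate block and without EC Sham replicate 2. mt-Atp8 differed by 0.76 ± 0.48 and mt-Nd5 by 0.74 ± 0.42, and 4 of 13 genes were positive in ECs in all, or 6 with library sizes alone. The values of mt-Atp8 and mt-Nd6 did not overlap between these groups, as for 35.5% of all genes.

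The proportions of the genes among the 13 also differed between the Sham libraries of the populations. These libraries were on different sample-sheet lists, numbers of the labels that are described below. Sham cardiomyocytes were all on list 4, EC replicate 1 on list 3 and the other ECs on list 2. Fibroblast replicate 1 was on list 4 and the other fibroblasts on list 1. Population and list are therefore largely confounded in these comparisons. A proportion is the percent of the 13 genes' counts in a library and is divided by gene length only where given per kb. In Sham cardiomyocytes mt-Nd4 took 30.5% ± 1.85 and mt-Nd2 26.6% ± 1.46, and together they took 57.1% ± 0.76. In Sham ECs the pair took 37.3% ± 5.63 and in Sham fibroblasts 39.2% ± 7.96. Summed over complex I, the proportion was 68.6% ± 0.32 in Sham cardiomyocytes, 51.6% ± 4.77 in ECs and 51.2% ± 6.43 in fibroblasts, and the cardiomyocyte libraries lay above all the others.

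Counts of a 3′ library come from transcript ends and need not scale with gene length, so values per kb are a description only. Per kb of gene, the order of the leading genes by mean was not the same in each population. mt-Nd2 led in Sham cardiomyocytes with 25.6% per kb, ahead of mt-Nd4 with 22.1% and mt-Co3 with 13.7%. mt-Co3 led in ECs with 18.3% per kb and in fibroblasts with 18.8%, and mt-Nd2 had 17% and 15.8% there. mt-Nd6 was last in all 3 populations, with 0.0578%, 0.198% and 0.0906% per kb.

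When each gene was fitted against the summed counts of the 13 genes, 3 members were called lower in cardiomyocytes than in ECs and none higher. Most nuclear genes are also lower on that scale, and 93.3% of the 12085 genes tested were called lower. With so many genes called, the adjustment changes little, and the same 3 members had an unadjusted p below 0.05. mt-Nd6 was 0.0344%, 0.0236%, 0.0347% and 0.0274% of the mitochondrial counts in Sham cardiomyocytes and 0.133%, 0.0538%, 0.0895% and 0.135% in Sham ECs, a log2 difference of -1.77 ± 0.41 (FDR 6.5e-05). The groups did not overlap. mt-Co2 differed by -1.26 ± 0.43 (FDR 0.0047) and mt-Nd3, a small membrane subunit of complex I, by -0.95 ± 0.44 (FDR 0.038).

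Against fibroblasts, 2 members were called higher in proportion and 2 lower, where 1.57% and 94.5% of all genes were. The adjustment changes little here too, and the same 4 members had an unadjusted p below 0.05. mt-Nd4l (0.88 ± 0.37, FDR 0.020) and mt-Nd5 (0.86 ± 0.37, FDR 0.025) were higher in cardiomyocytes, and mt-Co2 (-1.23 ± 0.43, FDR 0.0057) and mt-Atp6 (-0.77 ± 0.35, FDR 0.034) were lower. mt-Atp6 was 7.05%, 6.82%, 7.44% and 6.94% of the mitochondrial counts in Sham cardiomyocytes and 11.7%, 11.5%, 13.8% and 11% in Sham fibroblasts. Without fibroblast Sham replicate 1, which is on a different sample-sheet list from the other 3, 7 members were called. That fit leaves no Sham fibroblast on the list of the Sham cardiomyocytes, so population and list cannot be told apart in it. Leaving out cardiomyocyte Sham replicate 1, cardiomyocyte Sham replicate 3 or fibroblast Sham replicate 3 left 2 calls each. The shares of all genes called without a library are not given here, so nothing particular to the members is read from these counts.

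Between ECs and fibroblasts 1 member, mt-Nd6, was called higher in proportion in ECs (1.13 ± 0.41, FDR 0.036), where 11.2% of all genes were. It was 0.0764%, 0.0318%, 0.0389% and 0.041% in Sham fibroblasts, so that the lowest EC library lay below the highest fibroblast library. This call was lost without EC Sham replicate 1 or 4 or without fibroblast Sham replicate 2, 3 or 4, and without fibroblast Sham replicate 1 there were 3 calls. The shares of all genes called in these fits are not given here.

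The spread in these fits comes from all genes, so the proportions were also compared by an exact two-sided permutation test of 1 gene at a time, chosen after the data were seen and left unadjusted over 39 tests. With 4 libraries against 4 the smallest p it can give is 0.0286. That value was reached by 11 members for cardiomyocytes against ECs, by 7 for cardiomyocytes against fibroblasts and by 2, mt-Co1 and mt-Nd5, for ECs against fibroblasts. Since these are the members whose libraries do not overlap, they stand beside 90.5%, 90% and 20.8% of all genes that did not overlap on the same scale in these comparisons, so nothing particular to the members is read from the counts. mt-Nd2 and mt-Nd4 were among them in both comparisons with cardiomyocytes, with mean log2 differences of 0.60 and 0.65 against ECs and 0.73 and 0.43 against fibroblasts. The values of mt-Co1 depend on how its reads were divided from those of Gm29216. That copy held 58.1% of the pair in Sham ECs and 63.1% in Sham fibroblasts, and this test was not run on the pair summed.

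**Figure D3:**
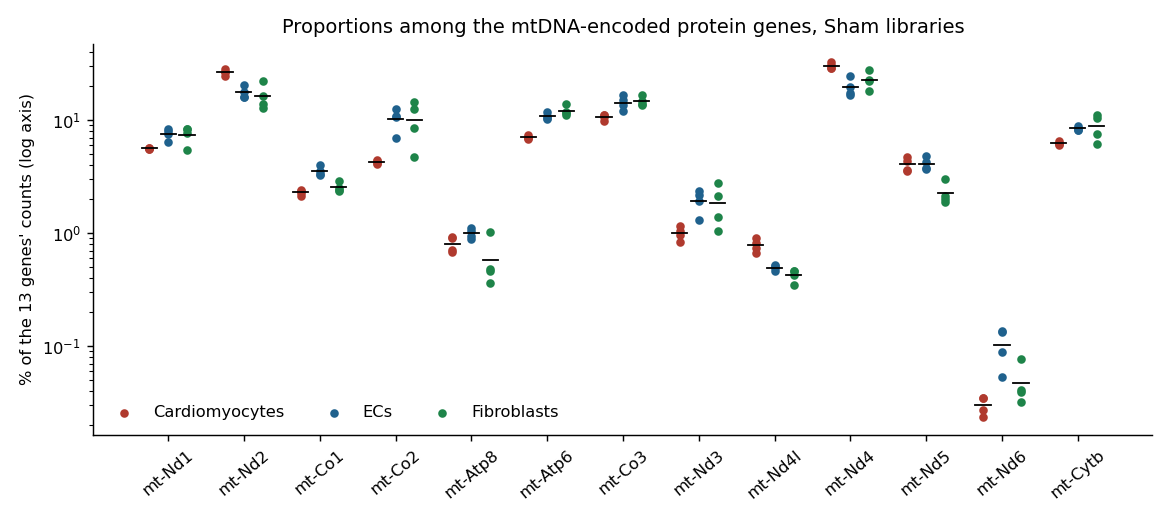
Percent of the 13 genes' counts taken by each gene in the Sham libraries of each population (vertical log axis; each point is a library and each bar a mean). The cardiomyocyte libraries lie above the ECs for mt-Nd2, mt-Nd4l and mt-Nd4 and below them for mt-Co2, mt-Atp6 and mt-Nd6.

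In cardiomyocytes no member differed past the threshold between Control-AMI and Sham. None was called by edgeR, where 0.0655% of 9167 genes were, 0 had an unadjusted p below 0.05, and DESeq2 called 0. Of the 13, 7 were higher in Control-AMI, and the log2 fold changes ran from -0.18 to 0.27 with a median of 0.08. mt-Nd4 was at 205410, 201700, 131870, 53644 and 144780 CPM (TMM-scaled) in Control-AMI and at 154440, 224000, 160890 and 126870 CPM in Sham. Control-AMI replicate 4 lay below every other library of these groups.

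In cardiomyocytes of EMPA–Pre-AMI mice the 13 genes were counted higher than in Control-AMI, but none passed the test. The median log2 fold change was 0.64, where the median of all genes was -0.01. All 13 were positive with TMM, RLE and DESeq2 scaling, 10 with library sizes alone and 6 when the fit held the sample-sheet list. The labels carry another number too, which falls into 3 runs whose meaning is not given in the sources used here. A term for these runs of label numbers gave 13 positive, with a median of 0.51. With library sizes alone the median of all genes was -0.32 and that of the 13 genes 0.31. No member was called by edgeR, where 0.0218% of all genes were. Of the 13, 4 had an unadjusted p below 0.05, beside 25.0% of all genes, and DESeq2 called 3, namely mt-Nd1, mt-Co1 and mt-Nd4l, beside 11.4% of the genes to which it gave an adjusted p.

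The largest differences were those of mt-Nd3 and mt-Co2. mt-Co2 was at 32508, 124860, 43246 and 24084 CPM (TMM-scaled) in EMPA–Pre-AMI and at 28693, 37130, 6396, 27214 and 27687 CPM in Control-AMI. The groups overlapped, and replicate 2 of EMPA–Pre-AMI lay far above and replicate 3 of Control-AMI far below the others. The log2 fold change was 1.14 ± 0.46 (FDR 0.14). That of mt-Nd3 was 1.19 ± 0.63 (FDR 0.26), with 39781 CPM in the same EMPA–Pre-AMI library against 5216 to 9016 CPM in the other 3.

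mt-Nd4l and mt-Co1 had the lowest FDRs. mt-Nd4l was at 6091, 14754, 6007 and 4463 CPM in EMPA–Pre-AMI and at 4847, 4558, 2957, 2970 and 5071 CPM in Control-AMI, a log2 fold change of 0.94 ± 0.30 (FDR 0.081). mt-Co1 differed by 0.94 ± 0.32 (FDR 0.090). For mt-Nd4l, 3 of the 4 EMPA–Pre-AMI libraries lay above every Control-AMI library, and replicate 4 did not.

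mt-Nd4, mt-Nd5 and mt-Nd2 had the smallest differences. mt-Nd4 was at 159070, 111280, 136960 and 211090 CPM in EMPA–Pre-AMI, and its log2 fold change was 0.07 ± 0.34. The first 3 values lie within the range of Control-AMI, 53644 to 205410 CPM, and that of replicate 4 lies above it. mt-Nd2 differed by 0.23 ± 0.27 and mt-Nd5 by 0.22 ± 0.28. The remaining genes mt-Nd1, mt-Atp8, mt-Atp6, mt-Co3, mt-Nd6 and mt-Cytb lay between 0.42 and 0.77.

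These values rested in part on 1 library. Without EMPA–Pre-AMI replicate 2 the median log2 fold change was 0.24, all 13 remained positive and the lowest FDR was 0.27. Without replicate 4, mt-Nd1, mt-Co1, mt-Co2 and mt-Nd4l were called. Replicate 4 was the 1 EMPA–Pre-AMI cardiomyocyte library on sample-sheet list 4, where all Control-AMI cardiomyocytes were. Group and list therefore cannot be told apart in that fit. The share of all genes called in it is not given here, so nothing particular to the members is read from these calls. Replicate 2 had the highest mitochondrial share of all libraries, 66%, the lowest TMM factor in cardiomyocytes, 0.67, and the lowest Myh6, 1962 CPM against 4677 or more in the others. It was also the 1 cardiomyocyte library on sample-sheet list 2, and the part of these features in the result was not tested. The groups also differed in fibroblast markers, with none of the 10 listed genes at 0 in any cardiomyocyte library. The list summed to 339 to 1720.5 CPM in EMPA–Pre-AMI cardiomyocytes, 1394 to 4396 in Control-AMI and 1437 to 2930 in Sham. Col1a1 was at 12.1 to 77.9, 60.9 to 179 and 72.5 to 132 CPM in the same order. The part of these markers in the result was not tested.

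Compared with Sham, 12 of 13 genes were counted higher in EMPA–Pre-AMI cardiomyocytes, with a median log2 fold change of 0.70, and 10 with library sizes alone and 9 with the list term. None was called by edgeR, where 0.338% of all genes were, 5 had an unadjusted p below 0.05, beside 18.2% of all genes, and DESeq2 called 0. mt-Nd3 differed by 1.46 ± 0.68 and mt-Co2 by 1.28 ± 0.49, and mt-Nd4 by -0.11 ± 0.35. Without EMPA–Pre-AMI replicate 2 the median was 0.31, and without replicate 4 mt-Co1 and mt-Nd4l were called. Group and list cannot be told apart without replicate 4 here either, and the share of all genes called is not given. The comparison shares its EMPA–Pre-AMI libraries with the one against Control-AMI.

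In ECs no member was called in any comparison. Control-AMI against Sham had 0 calls by edgeR, where 6.56% of 10438 genes were called, and 11 of 13 genes were positive with a median log2 fold change of 0.25. mt-Nd4 was at 13752, 10765, 35845 and 11344 CPM (TMM-scaled) in Control-AMI and at 17392, 13122, 12244 and 9542 CPM in Sham. Replicate 3 of Control-AMI alone lay above the Sham range. Without it the median was -0.44 and 0 of 13 genes were positive, so the direction came from that library.

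EMPA–Pre-AMI ECs had 0 calls against Control-AMI, where 2.63% of all genes were called, and 0 against Sham, where 2.71% were. The median log2 fold changes were -0.04 and 0.22, with 3 and 10 of 13 genes positive, where a replicate block gave 10 and 11 positive and the list term gave 0 and 11. Without Control-AMI replicate 3, all 13 genes were positive against Control-AMI with a median of 0.62 and a lowest FDR of 0.085, and without any other single Control-AMI library 0 were, with medians of -0.19, -0.19 and -0.25. A term for the runs of label numbers also gave 13 positive, with a median of 0.46. No EC comparison had a member with an unadjusted p below 0.05, and DESeq2 called 0 in each.

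In fibroblasts 12 of 13 genes were counted lower in Control-AMI than in Sham, and none was called by edgeR, where 4.16% of 10691 genes were. The median log2 fold change was -0.64, mt-Co1 alone had an unadjusted p below 0.05 (FDR 0.20; 19.2% of all genes did), and DESeq2 called 0. mt-Co2 was at 1879, 2237, 2112 and 7596 CPM (TMM-scaled) in Control-AMI and at 1817, 15003, 4811 and 11045 CPM in Sham. The high Control-AMI value, that of replicate 4, and the 3 high Sham values are the libraries of sample-sheet list 1. The log2 fold change was -1.24 ± 0.70.

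Values of mt-Atp8 and mt-Nd5 did not overlap between these groups, as for 12.3% of all genes. mt-Nd5, the largest subunit encoded here, was at 1031, 1002, 1103 and 938 CPM in Control-AMI and at 1165, 2253, 1208 and 1534 CPM in Sham, a log2 fold change of -0.60 ± 0.32 (FDR 0.32). In the fit that held the list, mt-Atp8 alone was called, lower in Control-AMI (FDR 0.048). RLE factors, library sizes alone and a replicate block gave 0 calls. The share of all genes called in the fit with the list is not given here. Without Sham replicate 2 the median moved to -0.36.

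EMPA–Pre-AMI fibroblasts had 0 calls against Control-AMI, where no gene of the table was called (0%), and 0 against Sham, where 5.11% were. The median log2 fold changes were 0.12 and -0.38, with 12 and 2 of 13 genes positive, and with the list term 7 and 0. Against Control-AMI, leaving out 1 library gave medians from -0.07 (without EMPA–Pre-AMI replicate 1, 5 positive) to 0.45 (without Control-AMI replicate 4, 13 positive). Of the 13, 0 had an unadjusted p below 0.05 in either comparison, and DESeq2 called 0. Without Sham replicate 2, 6 of 13 genes were positive against Sham and the median was -0.09.

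**Figure D4:**
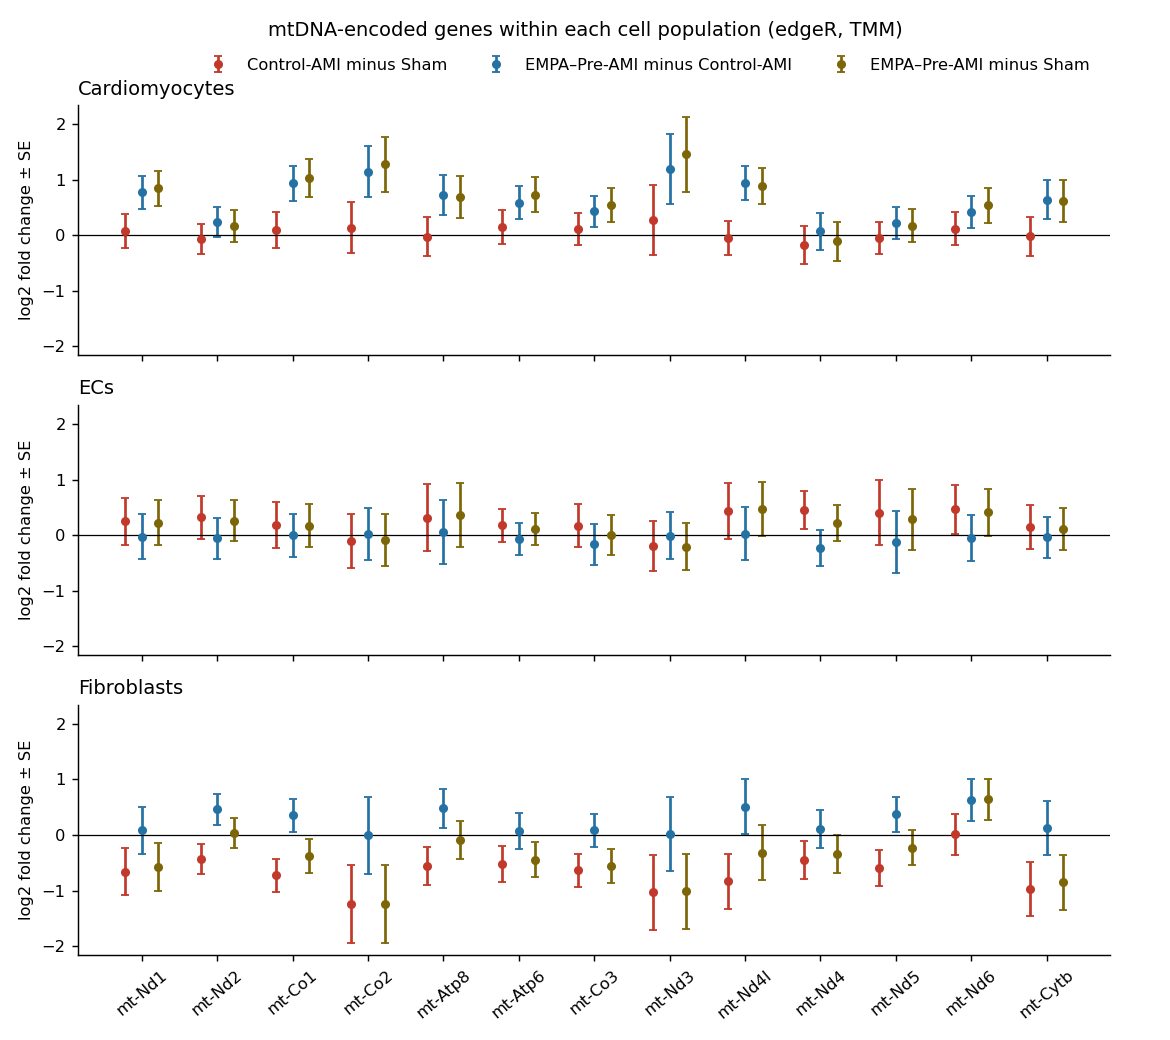
Log2 fold change ± SE (edgeR with TMM scaling) of each mtDNA-encoded gene in the 3 comparisons within cardiomyocytes, ECs and fibroblasts. No point reached an FDR below 0.05, and the cardiomyocyte values of mt-Co2 and mt-Nd3 in EMPA–Pre-AMI lie highest, between 1.14 and 1.46.

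The effects were also compared between populations in 1 fit of all libraries, and no member passed in any of the 9 differences of effects. The lowest FDR was 0.082, for mt-Co2 in EMPA–Pre-AMI minus Sham, where cardiomyocytes and fibroblasts differed by 2.38 ± 0.83 on the log2 scale. That comparison had 7 members with an unadjusted p below 0.05, beside 23.1% of all genes, and the other 8 had none. Of all genes, 5.78% were called in that comparison. In the order of Control-AMI against Sham, the infarcted groups against each other, and EMPA–Pre-AMI against Sham, 1.51%, 0.993% and 0.53% were called for cardiomyocytes minus ECs, 3.22%, 2.04% and 0.439% for ECs minus fibroblasts, and 0.331% and 0.00827% in the remaining differences of cardiomyocytes minus fibroblasts.

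Within a population, the proportions of the genes did not pass a test between groups. By edgeR 0 members were called in each of the 9 comparisons and 1 had an unadjusted p below 0.05, mt-Co2 in cardiomyocytes of EMPA–Pre-AMI against Sham (0.76 ± 0.35, FDR 0.27), where 16.5% of all genes did. Of all genes, 0.0764% were called on that scale in cardiomyocytes between Control-AMI and Sham, 2.95% in ECs and 2.44% in fibroblasts. Between the infarcted groups, the same share was 5.78%, 2.38% and 0% in this order of populations, and between EMPA–Pre-AMI and Sham it was 0.327%, 0.651% and 2.29%. The exact permutation test gave 0 unadjusted p below 0.05 over these 9 comparisons, with a lowest value of 0.0857.

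Libraries of the same group nevertheless differed widely in proportions. In cardiomyocytes mt-Nd4 took 29% to 32.9% of the mitochondrial counts in Sham, 15.2% to 33% in Control-AMI and 11.3% to 33.6% in EMPA–Pre-AMI. The 2 low libraries, replicate 4 of Control-AMI and replicate 2 of the treated group, had the highest proportions of mt-Co2 of their groups, 7.73% and 12.7%. Control-AMI replicate 3 had the lowest mt-Co2 of all 38 libraries, 1.6%, beside 2.59% for mt-Cytb and 0.29% for mt-Nd3.

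The labels carry sample-sheet numbers that run from S1 upward, and they form 4 lists (S1 to S8, S9 to S24, S25 to S36, and from S37). What a list stands for is not given in the sources used here. List 1 held 5 fibroblast libraries, namely replicate 4 of each group together with replicates 2 and 3 of Sham. Of the other fibroblast libraries, EMPA–Pre-AMI replicate 1 belonged to list 3 and 6 belonged to list 4. Lists and groups are thus partly confounded, and in Sham so are lists and populations. Values by list were examined after the data were seen.

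In fibroblasts mt-Nd4 took 13.9% to 22.8% of the mitochondrial counts in the 5 libraries of list 1 and 27% to 31.8% in the 6 of list 4. mt-Co2 took 8.47% to 14.6% on list 1 and 3.31% to 5.95% on list 4. Neither gene overlapped between these lists, and the same held for 7 of the 13 genes in all, beside 3.56% of the 10953 genes tested on this scale. In the fit with group and list terms, the proportion of mt-Co2 was higher on list 1 by 1.3 ± 0.42 on the log2 scale (FDR 0.044), where 5.28% of all genes were called. In the fit of levels mt-Co3 was the 1 member called (0.76 ± 0.23, FDR 0.038), where 15.3% of all genes were. Sham fibroblast replicate 1, on list 4 as all Sham cardiomyocytes were, had 28.1% mt-Nd4 and 4.68% mt-Co2. Sham cardiomyocytes had 29% to 32.9% mt-Nd4 and 4.07% to 4.46% mt-Co2. The part of the lists in the differences between populations was not tested.

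In ECs mt-Nd4 took 16.7% to 22.2% in the 8 libraries of list 2, 24.9% to 25.3% in the 3 of list 3 and 24.4% to 25% in the 2 of list 4. Of the 13 genes, 2 did not overlap between lists 2 and 3 and 5 did not between lists 2 and 4, mt-Nd4 in both. The matching shares of all genes are not given here, so nothing particular to the members is read from these counts. No member was called between lists 2 and 4 in ECs, where 0.205% of all genes were called in levels, nor in proportions, where 0.83% were, and list 4 has 2 libraries. Of the cardiomyocyte libraries, 10 belonged to list 4, and replicates 1 and 3 (list 3) and 2 (list 2) of EMPA–Pre-AMI did not, so group and list cannot be told apart there beyond EMPA–Pre-AMI replicate 4 on list 4. That replicate had 33.6% mt-Nd4, beside at most 33% in Control-AMI, and 3.84% mt-Co2, within the Control-AMI range.

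**Figure D5:**
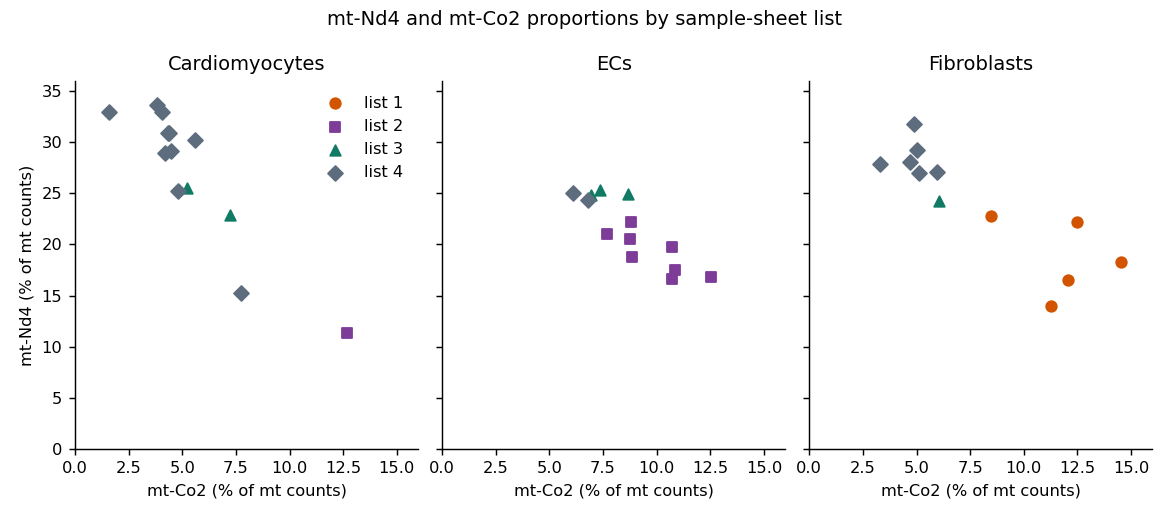
Proportions of mt-Nd4 (vertical axis) and mt-Co2 (horizontal axis), in percent of the 13 genes' counts, with a point for each library and a symbol for its sample-sheet list. In fibroblasts the list 1 libraries lie at 8.47% or more mt-Co2 and the list 4 libraries at 5.95% or less.

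The nuclear genes of the same complexes gave a background for these values. A list of 82 nuclear genes of complexes I, III, IV and V, called subunits below, was drawn by gene symbol. Nduf genes were placed under complex I and Atp5 genes under complex V, so a listed gene need not be a subunit of its complex. In Sham 78 were tested, and 78 were called higher in cardiomyocytes than in ECs (28.1% of all genes) and 77 than in fibroblasts (24.5%). The listed genes' median log2 fold changes were 3.98 and 3.59, beside 4.44 and 4.19 for the 13 mitochondrial genes. For complex I the nuclear and mitochondrial medians were 3.73 and 4.87 against ECs, and for complex IV 4.11 and 4.24. Those with the lowest FDR against ECs were Atp5mc1, a gene of the ATP synthase c ring (5.93 ± 0.25), Ndufb9 of complex I (4.43 ± 0.19) and Atp5pd and Atp5mf of ATP synthase (4.02 ± 0.18 and 4.09 ± 0.19). The 1 listed gene called lower than in fibroblasts was Ndufa4l2 (-1.23 ± 0.49, FDR 0.037). Between ECs and fibroblasts 2 of 78 were higher in ECs, Atp5pf (0.70 ± 0.24) and Ndufa8 (0.86 ± 0.33), and 14 were lower, where 37.7% of all genes were called.

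Within populations the nuclear subunits were called in 1 comparison, in fits with TMM scaling alone. Ndufa8, an accessory subunit of complex I, was lower in Control-AMI than in Sham ECs (-0.86 ± 0.21, FDR 0.013), the 1 call among 76 tested, where 6.56% of all genes were called. In Sham it was higher in ECs than in fibroblasts by 0.86, and Control-AMI ECs had the higher fibroblast markers given above, with the EC list at 7732 to 10739 CPM against 14630 to 16810 in Sham. Their part in this call was not tested. In cardiomyocytes of EMPA–Pre-AMI against Control-AMI, 76 of 77 nuclear subunits were positive with a median log2 fold change of 0.73 and 0 called, beside 0.64 for the 13 mitochondrial genes. By complex, the nuclear and mitochondrial medians were 0.62 and 0.42 for complex I and 0.79 and 0.94 for complex IV. The nuclear and mitochondrial values rest on the same libraries and TMM factors. Whether the nuclear values depend on EMPA–Pre-AMI replicate 2 or on the sample-sheet lists was not tested. Against Sham, 76 of 77 were positive with a median of 0.51.

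A list of 40 nuclear genes that copy, transcribe and process mitochondrial DNA and its RNA was read in the same fits. Of 37 tested in Sham, 23 were higher and 1 lower in cardiomyocytes than in ECs, and 22 were higher and 1 lower than in fibroblasts. Among all genes, 28.1% and 24.5% were higher in the same comparisons. Ppargc1a, a coactivator of mitochondrial biogenesis, had the lowest FDR in both, with differences of 6.03 ± 0.43 and 7.11 ± 0.46. Grsf1, which binds mitochondrial RNA in granules, was higher by 3.01 ± 0.25 and 3.12 ± 0.25, and Hsd17b10, a subunit of mitochondrial RNase P, by 3.07 ± 0.26 and 2.52 ± 0.25. The gene called lower in both was Nrf1, a transcription factor for nuclear genes of respiration (-1.02 ± 0.24 and -0.74 ± 0.24). Fastk, whose product is known to act on mt-Nd6 RNA, was higher in cardiomyocytes than in ECs by 2.98 ± 0.27.

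Between ECs and fibroblasts 0 of these 37 genes were called higher by edgeR and 3 lower in ECs, namely Ppargc1b (-2.0 ± 0.47), Fastk (-1.05 ± 0.27) and Rexo2, which degrades short RNA (-0.52 ± 0.17). In that comparison 37.7% of all genes were called. In fibroblasts Ppargc1b, a second coactivator of this family, was lower in Control-AMI than in Sham (-1.39 ± 0.34, FDR 0.031), and Pde12, which removes poly(A) from mitochondrial RNA, was higher (1.42 ± 0.37, FDR 0.040). They were the only calls among 33 listed genes tested, where 4.16% of all genes were called. Both were called in the same direction in EMPA–Pre-AMI against Sham, a comparison that shares the Sham libraries, together with Tbrg4 (0.95 ± 0.25, FDR 0.036), which stabilizes mitochondrial messengers. There 5.11% of all genes were called. Sham fibroblasts were mostly on sample-sheet list 1 and Control-AMI fibroblasts mostly on list 4, between which 15.3% of all genes were called in levels. The part of the sample-sheet lists in these calls was not tested. None of the 40 listed genes was called in cardiomyocytes or ECs between groups.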

How the data were processed

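The 38 libraries were made with the QuantSeq 3′ FWD kit. Per the submitters' processing notes and the study's methods, the authors trimmed reads with cutadapt 2.8, checked them with FastQC and quantified them with Salmon against GRCm39 and Ensembl annotation 106. The strand setting of the counting is not given in the sources used here. The deposited values are estimated counts per gene, of which 4.55% of cells were not whole, and they were rounded. Every column was assigned to a sample by its label, and groups were taken from the labels. The 13 genes, the gene lists and the tests were chosen with earlier results of these data known.

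Differences in level were tested with edgeR 4.0.16 in R 4.3.3 (filterByExpr, TMM factors, robust quasi-likelihood F-test, FDR below 0.05 over all genes tested), in a fit for each population and in 1 fit of all libraries for comparisons between populations. Proportions were tested in the same way with the summed counts of the 13 genes as library size. Shares of a library were not tested. Per the study's methods, the libraries of a population in a group are independent experiments on pooled hearts. Libraries of different populations can share hearts, and the main fit of all libraries took them as independent. Alternatives were DESeq2 1.42.0, RLE factors, library sizes alone, other count filters and no robust estimation. Others were a replicate block, terms for label lists or for runs of label numbers, added nuclear copies and leaving out each library. Exact permutation tests of proportions, tests of list terms and sums by complex were chosen after the data were seen. The edgeR test was tested on simulated data. Named genes were all 13 members, the nuclear copies with counts, the defining markers and, of the nuclear lists, up to 4 genes per comparison with the lowest FDR below 0.05, and others where 5 or fewer were called, which were chosen after their values were seen. Sequences and coordinates came from GRCm39.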

Additional observations from a re-analysis of the deposited data

Results flagged for a closer look

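In 6 of 135 sets of values (the mitochondrial share, the share of Gm29216 in its pair with mt-Co1 or a gene's proportion, each in 1 group), 1 library lay far from the others of its group by Dixon's test, or 4.44%. Chance flags about 1 in 20 such groups. In cardiomyocytes of Control-AMI mice, mt-Nd6 took 0.0499% of the mitochondrial counts in replicate 4, against 0.0273% to 0.0326% in the other libraries. In the same group mt-Cytb took 2.59% in replicate 3, against 6.56% to 7.46%. In ECs of Control-AMI mice the mitochondrial share of replicate 3 was 14.64%, against 4.52% to 5.67%.

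The other 3 values came from 1 fibroblast library, Control-AMI replicate 4. Its proportion of mt-Co2 was 12.07%, against 4.89% to 5.12% in the other 3 libraries. mt-Nd3 took 2.65%, against 0.881% to 1.11%, and mt-Cytb took 9.01%, against 6.74% to 6.88%. This library was on sample-sheet list 1 and the other 3 were on list 4, and list and library cannot be told apart within this group.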

How the results depend on the processing

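The calls of all 13 genes in Sham cardiomyocytes over ECs and fibroblasts were the same in number under every alternative run. In cardiomyocytes of EMPA–Pre-AMI against Control-AMI, where edgeR called 0 members, DESeq2 called 3, the fit with no filter called 1, and leaving out 1 library gave 0 to 4. Against Sham, leaving out 1 library gave 0 to 2. In fibroblasts of Control-AMI against Sham, the sample-sheet list term gave 1 call in place of 0. For Sham ECs against fibroblasts, DESeq2 and library sizes alone called 1 member in place of 0, and leaving out 1 library gave 0 to 1. For proportions, cardiomyocytes against fibroblasts had 4 calls, 1 with no filter and 2 to 7 without 1 library, and ECs against fibroblasts had 1 call, 0 with no filter and 0 to 3 without 1 library. Read as counts per 100 other counts, the log2 ratio of the share was 0.23 for cardiomyocytes of EMPA–Pre-AMI against Sham, 4.15 for cardiomyocytes against ECs and 3.95 against fibroblasts. Except for DESeq2, the shares of all genes called under these alternatives are not given here, so nothing particular to the members is read from the counts. The causes were not tested.

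Correlations of same-numbered deviations from group means ran from -0.11 to 0.48, and replicate number was not taken as a pairing. Per the study's methods, cardiomyocytes and sorted cells came from the same digested hearts. Which libraries of different populations share a pool is not stated in the sources used here, so pairing by pool was not tested. A replicate block gave 1 call for Sham ECs against fibroblasts in place of 0 and kept every other count within 1.5 times. Counting all mitochondrial rows or the 13 protein genes alone gave the same values, because the table held these 13 rows. mt-Nd6, with 51 to 91 counts in Sham fibroblast libraries, was the member with the fewest counts, and the part of depth or of poly(A) capture in this was not tested.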
